A study of Mus musculus with 2 samples.

Results

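Genes of S phase and mitosis were followed in brain tissue of an E18.5 C57BL/6 mouse embryo that carried the CTCF-R567W change on both alleles, made by CRISPR/Cas9. This tissue was assayed by SPARC-seq, in which RNA and accessible DNA carry the same set of barcodes, and gave 1 RNA library and 1 chromatin accessibility library. Both libraries had this genotype, no wild-type library of the assay was analysed here, and the effect of the mutation could not be measured. The set was a list of 35 gene symbols, 10 of S phase and 25 of mitosis, named by function, and all 35 were found among the 32285 genes of the count matrix.

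A dividing cell copies its DNA in S phase, when the Mcm helicase opens the double helix, the clamp Pcna holds the polymerase and ribonucleotide reductase supplies the building blocks. Mitosis follows a different set of genes: the kinase Cdk1 with its cyclins starts it, the spindle and kinetochores move the chromosomes, the anaphase-promoting complex ends it, and cytokinesis splits the cell. In the late embryonic brain most neurons have stopped dividing, and division continues in progenitor layers, glial precursors, vessels and the tissues around the brain. S phase genes are widely known as E2F targets, while many mitosis genes carry CCAAT boxes and a CHR element in their promoters.

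Each barcode joins 2 segments of 8 bases and is read here as a spot, a small area that can hold several cells. After spots were filtered on gene number and mitochondrial share, 1992 of 1993 spots in the matrix were kept, with 8711132 UMIs (median 4157 per spot, 907 to 12442) and a median of 21705 fragments per spot. Rates of RNA are UMIs per 1000000 UMIs of the same spots (CPM), and rates of promoters are fragments within 1 kb of the transcription start per 1000000 such fragments over all genes. The 95% intervals reflect the error of counting alone, since spots of 1 library are not replicates, and no p-value was computed. Less RNA per cell and fewer cells of a kind cannot be told apart in a spot.

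The promoters of the 5 members with more RNA in muscle-rich spots, described further on, are shown first, because the accessibility of their start sites is set against that RNA. Each run holds the 250 bases before the RefSeq start (GRCm38.p6), written 5′ to 3′ on the strand of the gene. Capitals mark a CCAAT box (CCAAT on either strand), a CHR element (TTTGAA or TTTAAA on either strand) or an E2F site (TTTCCCGC or TTTGGCGC on either strand), and matches may overlap.
Rrm1, chr7:102441445-102441694, plus strand: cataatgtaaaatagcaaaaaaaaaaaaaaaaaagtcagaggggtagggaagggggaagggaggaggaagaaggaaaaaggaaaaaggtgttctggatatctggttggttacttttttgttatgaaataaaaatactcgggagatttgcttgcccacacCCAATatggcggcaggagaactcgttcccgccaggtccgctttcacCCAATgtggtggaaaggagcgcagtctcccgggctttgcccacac
Kif11, chr19:37376132-37376381, plus strand: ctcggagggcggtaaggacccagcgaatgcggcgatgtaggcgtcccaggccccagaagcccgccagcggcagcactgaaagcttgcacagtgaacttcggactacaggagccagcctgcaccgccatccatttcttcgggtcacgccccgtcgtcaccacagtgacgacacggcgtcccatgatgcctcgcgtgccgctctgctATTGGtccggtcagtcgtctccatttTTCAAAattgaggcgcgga
Anln, chr9:22389207-22389456, minus strand: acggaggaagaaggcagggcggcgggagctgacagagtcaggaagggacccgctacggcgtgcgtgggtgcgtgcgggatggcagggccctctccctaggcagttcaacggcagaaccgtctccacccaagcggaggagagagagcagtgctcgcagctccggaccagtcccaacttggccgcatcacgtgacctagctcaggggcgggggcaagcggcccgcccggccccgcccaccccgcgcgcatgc
Top2a, chr11:99024190-99024439, minus strand: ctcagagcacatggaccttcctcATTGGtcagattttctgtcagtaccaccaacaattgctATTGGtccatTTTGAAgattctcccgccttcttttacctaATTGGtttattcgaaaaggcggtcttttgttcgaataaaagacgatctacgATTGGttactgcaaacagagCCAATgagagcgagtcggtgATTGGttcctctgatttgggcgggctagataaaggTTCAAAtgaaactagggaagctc
Hmgb2, chr8:57511593-57511842, plus strand: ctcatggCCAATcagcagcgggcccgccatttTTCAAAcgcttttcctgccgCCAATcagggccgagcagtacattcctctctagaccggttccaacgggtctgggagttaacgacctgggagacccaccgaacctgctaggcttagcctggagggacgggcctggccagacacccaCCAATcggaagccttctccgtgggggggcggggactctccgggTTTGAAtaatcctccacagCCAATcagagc

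The runs of Top2a and Hmgb2 held 6 and 4 CCAAT boxes, each with 2 CHR elements. Kif11 had 1 of each, Rrm1 had 2 CCAAT boxes and no CHR, and Anln had none of these letters before its start, with 2 CHR matches just after it. Of the 30 members with a RefSeq promoter of 300 bases (250 before to 50 after the start), 21 were mitosis genes. A CHR stood in 19 of these 21, or 90.5%, against 25.5% of 20262 promoters of genes in the matrix, and a CCAAT box together with a CHR in 16 of 21, or 76.2%, against 10.1%. Of the 9 S phase promoters 8, or 88.9%, held a CCAAT box, next to 17 of 21 mitosis promoters, or 81.0%, and 38.3% of all, while a CHR, each time with a CCAAT box, stood in 3 of 9, or 33.3%. The E2F letters were found in 4 of 9 S phase promoters (Mcm3, Mcm5, Mcm6 and Mcm7), or 44.4%, in 0 of 21 mitosis promoters, and in 1.97% of all. No RefSeq promoter was matched for Mcm4, Ccna2, Aurkb, Kif20a and Tpx2. These are matches of letters, and binding was not measured.

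The median member had an RNA count in the middle of those of all coding genes and a promoter count above the middle. Against coding genes with at least 50 UMIs, whose median was 296 UMIs, the members' median of 90 UMIs was low. Together the members had 4488 UMIs, or 515 CPM (500.2 to 531), of which the S phase members took 149 CPM (141 to 157) and the mitosis members 366 CPM (354 to 379). The median UMI count, 90 at Ccnb2, stood at percentile 51.1 of all protein-coding genes, with the members running from percentile 32.0 (Bub1) to 80.2 (Mki67). The median promoter count, 323 fragments at Cdk1, stood at percentile 75.5, with 4 members, Bub1, Ccnb2, Aurkb and Tyms, below the middle at 39.4, 42.7, 44.95 and 48.2. Every one of the 35 starts lay in or close beside a peak of the authors, compared with 57.6% of all coding genes and 85.2% of those with at least 50 UMIs. The share of fragments shorter than the DNA around a nucleosome had a median of 54.8% over member promoters. Over coding genes with at least 50 UMIs the median was 49.2%, both taken over all barcodes of the fragment file. Across the 35 members the UMI count and the promoter count had a Spearman rho of 0.31, which is over genes and not over independent samples.

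The UMI counts of single members, which depend on gene length as well, give the depth behind the ratios further on. Among the S phase members, the helicase subunits Mcm7, Mcm6 and Mcm5 had 232, 220 and 150 UMIs, and Mcm4, Mcm2 and Mcm3 had 67, 62 and 60. Their promoters held 269 (Mcm2) to 664 (Mcm4) fragments. The start of Prkdc lies close to that of Mcm4 and the start of Ap4m1 close to that of Mcm7, so these windows overlap. Pcna had 75 UMIs and 750 promoter fragments, in a window that overlaps the one around the start of AV099323. Of the nucleotide genes, Rrm1, the large subunit of ribonucleotide reductase, had 205 UMIs, its small subunit Rrm2 had 68, and Tyms, which makes thymidylate, had 158.

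Among the mitosis members, Mki67, a coat of mitotic chromosomes used as a marker of dividing cells, had most UMIs, 448, followed by Top2a, which untangles DNA, with 344 and the chromatin protein Hmgb2 with 260. Ube2c, the ubiquitin-conjugating enzyme of the anaphase-promoting complex, had 238, and its activator Cdc20 had 79. The cytokinesis and spindle members Prc1, Nusap1, Tpx2, Kif11, Kif23, Anln and Kif20a had 202, 194, 157, 127, 114, 88 and 29 UMIs. Kinetochore and checkpoint members ranged from 130 for Cenpf, 124 for Knl1 and 115 for Cenpe to 62 for Bub1b and 13 for Bub1. The cyclins and their kinase had 90 UMIs for Ccnb2, 82 for Cdk1, 49 for Ccnb1 and 39 for Ccna2. The mitotic kinases had 50 for Aurka, 50 for Plk1 and 22 for Aurkb, and Birc5, the survivin subunit that works with Aurkb, had 85. Counting error is large at this depth: the rate of Anln, 10.1 CPM, had an exact Poisson interval of 8.10 to 12.4 CPM. The gene Gm48646 overlaps Anln on the same strand, and Tnnc2, a troponin gene of muscle, overlaps Ube2c on the opposite strand. How reads in these overlaps were assigned was not examined.

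Per kilobase of gene span, introns included, the level was highest for Hmgb2, with 63.5 UMIs per kb, then Mcm7 with 29.6, Ube2c with 26.7, Pcna with 18.1, Cdc20 with 17.7 and Mki67 with 16.9. Hmgb2 stood apart, but Mcm7 and Ube2c did not differ beyond counting error, and neither did Pcna, Cdc20 and Mki67. The long genes Cenpe, Anln, Bub1b and Bub1 were lowest, at 1.88, 1.54, 1.43 and 0.423 UMIs per kb. Promoter fragments ranged from 104 at Bub1 and 120 at Ccnb2 to 987 at Hmgb2, which was at percentile 98.5 of coding genes. Ccna2, with only 39 UMIs, had 491 promoter fragments and stood at percentile 88.5. The windows of Aurka, Ube2c, Plk1, Kif20a and Nusap1 overlap those around the starts of Cstf1, Gm11457, Gm15489, Brd8 and Oip5.

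To ask where proliferation lay, the 10% of spots with the largest share of Acta1 and Ttn UMIs, genes of the muscle sarcomere, was set against the rest, as 199 muscle-rich and 1793 other spots. At the border the last spot inside had 25.46 Acta1 and Ttn UMIs per 10000 and the first outside 25.42. The mitosis members had 430 UMIs in muscle-rich spots, 495 CPM, and 2761 in other spots, 352 CPM, a ratio of 1.40 (1.27 to 1.56). The S phase members had 148 and 1149 UMIs, 170.2 and 146.5 CPM, a ratio of 1.16 (0.972 to 1.38) whose interval includes 1. The number of mitosis UMIs per S phase UMI was 2.91 and 2.40, an odds ratio of 1.21 (0.988 to 1.49), so the difference between the phases was not resolved at this depth.

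**Figure D1:**
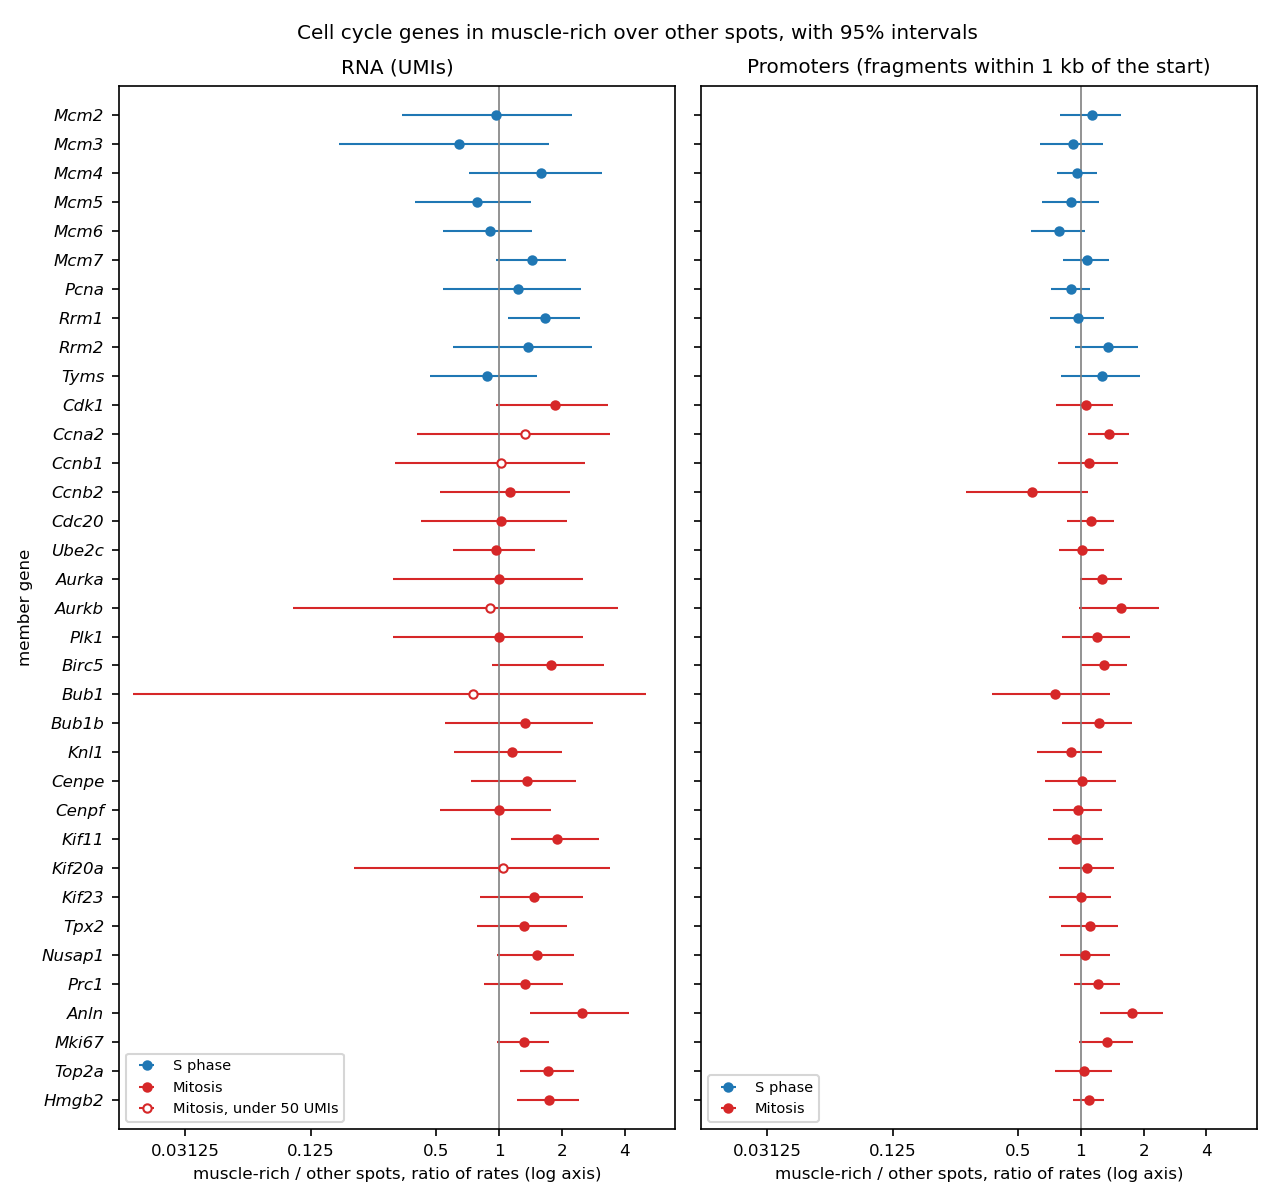
Ratio of the rate in 199 muscle-rich spots to that in 1793 other spots for each of the 35 members, for RNA on the left and promoter fragments on the right, on a log axis with 95% intervals; open circles had under 50 UMIs. RNA ratios ran from 0.644 to 2.48, and Anln was the member with both its RNA and its promoter interval above 1.

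A gene was called when it had at least 50 counts, a ratio of at least 1.5 or at most its inverse, and an interval leaving out 1. Of the 30 members with 50 UMIs, 5 were called high and 0 low, against a background of 6.69% of 12944 genes called high and 3.66% called low. Taken within the muscle segments or outside them, a division described further on that was made after the data were seen, 0 members were called, and with a 2-fold threshold 1 was. The share of all genes called was not counted in these settings, and both subsets hold fewer spots. These counts can therefore not be read as a result about the members. Among the 8569 tested genes with no more UMIs than Mki67, 8.46% were called high. The median RNA ratio was 1.32 for mitosis members, 1.10 for S phase members and 0.975 for all tested genes, and 22 of 25 mitosis members but 5 of 10 S phase members had a ratio above 1, which 46.2% of tested genes had. These mitosis values cover all 25 members, of which 20 had 50 UMIs, while every tested gene had at least 50.

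Anln (ENSMUSG00000036777, chromosome 9, 22332012 to 22389188), the anillin scaffold of the contractile ring, had 19 UMIs in muscle-rich and 69 in other spots, a ratio of 2.48 (1.41 to 4.18). Kif11 (ENSMUSG00000012443, chromosome 19, 37376403 to 37421859), the motor that pushes spindle poles apart, had 22 and 105, a ratio of 1.89 (1.14 to 3.01). Hmgb2 (ENSMUSG00000054717, chromosome 8, 57511907 to 57515999) had 42 and 218, a ratio of 1.74 (1.22 to 2.43). These were the most unequal called members, and the lower limit of each lay well under its ratio. Top2a (ENSMUSG00000020914, chromosome 11, 98992943 to 99024189) had 55 and 289, a ratio of 1.72 (1.26 to 2.30). Rrm1 (ENSMUSG00000030978, chromosome 7, 102441695 to 102469771) had 32 and 173, a ratio of 1.67 (1.11 to 2.44), and was the S phase member called. Without the 4 called mitosis members the other 21 still had a ratio of 1.27 (1.12 to 1.43), a sum chosen after the values were seen.

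By role, the summed ratio was highest for the spindle and cytokinesis members, at 1.56 (1.29 to 1.87), and the chromatin members, at 1.55 (1.30 to 1.84). All 7 spindle members had a ratio above 1: after Anln and Kif11 came Nusap1 at 1.52 (0.981 to 2.28), Kif23 at 1.47, Prc1 at 1.33, Tpx2 at 1.32 and Kif20a at 1.04. Mki67, the member with most UMIs, had a ratio of 1.32 (0.978 to 1.74). The cyclins and their kinase summed to 1.36 (0.917 to 1.95), in which Cdk1 had 1.86 (0.965 to 3.33), Ccna2 1.33, Ccnb2 1.13 and Ccnb1 1.03. The mitotic kinases with Birc5 summed to 1.30 (0.824 to 1.96), Birc5 itself having 1.78 (0.926 to 3.18) and Aurka, Plk1 and Aurkb 1.002, 1.002 and 0.902. The intervals of these role sums hold 1, and their members had at most 14 UMIs each in muscle-rich spots. The kinetochore members summed to 1.17 (0.857 to 1.57), from 0.752 for Bub1 to 1.35 for Cenpe, with Bub1b at 1.34, Knl1 at 1.15 and Cenpf at 1.002.

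The genes that end mitosis had ratios near 1: Ube2c had 23 and 215 UMIs, a ratio of 0.965 (0.599 to 1.49), and Cdc20 had 1.02 (0.423 to 2.11). The 6 helicase subunits summed to 1.07 (0.844 to 1.35), with Mcm4 at 1.58, Mcm7 at 1.44, Mcm2 at 0.966, Mcm6 at 0.902, Mcm5 at 0.784 and Mcm3 at 0.644. Pcna had 1.23, Rrm2 1.38 and Tyms 0.877, each with an interval on both sides of 1. Most of these single intervals hold 1.5 as well as 1, so a difference of that size was not detectable at this depth.

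The summed promoter ratios of the members lay closer to 1 than their RNA ratios. In muscle-rich over other spots the mitosis promoters held 1418 and 7285 fragments, a ratio of 1.12 (1.06 to 1.19), and the S phase promoters 577 and 3408, a ratio of 0.975 (0.891 to 1.07). Of 35 promoters 1 was called high and 0 low, where 6.52% and 6.91% of 22021 genes were. It was that of Anln, with 46 and 150 fragments and a ratio of 1.77 (1.24 to 2.47). The other members with more RNA had promoter ratios around 1, namely Kif11 0.948 (0.695 to 1.27), Rrm1 0.966 (0.708 to 1.30), Top2a 1.04 (0.748 to 1.42) and Hmgb2 1.09 (0.913 to 1.29). Among all 813 genes called high in RNA whose promoter could be tested, 241, or 29.6%, also had the promoter called high, next to 1 of 5 members.

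The role with the highest summed promoter ratio was that of the mitotic kinases and Birc5, at 1.29 (1.12 to 1.49), in which no member passed the call: Aurkb had 1.55 (0.983 to 2.37), Birc5 1.30 (1.01 to 1.66), Aurka 1.26 (0.996 to 1.58) and Plk1 1.20 (0.813 to 1.72). Ccna2 had 1.36 (1.08 to 1.71), and Ccnb2, at 0.581 (0.282 to 1.08), was the lowest of all. Over the 30 members with 50 UMIs the RNA ratio and the promoter ratio had a Spearman rho of 0.20, next to 0.28 over 12431 genes; points share their library and their spots. The sarcomere genes that chose the spots are given for scale: the promoter of Acta1 had a ratio of 2.34 (1.59 to 3.39) and that of Ttn 1.08 (0.369 to 2.62).

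Muscle-rich spots differed in more than muscle. They had a median of 4259 UMIs against 4150 but 31986 fragments against 21315, and 53.7% against 46.3% of their fragments were shorter than the DNA around a nucleosome. The 7 fibroblast markers summed to 2872 CPM against 1380, with 5 called high, the 7 epithelial markers to 357 against 155, with 5 called high, and the 6 muscle progenitor markers to 113 against 52.4, with 2 called high. The 7 cartilage markers summed to 426 against 277, with 2 called high and Matn1 at 0. The 8 neuron markers, present throughout the tissue labelled brain, summed to 2945 against 4198 with 3 called low. The 5 choroid plexus markers summed to 888 against 1353 CPM with 2 called low. Their rate was uneven over the second barcode segments, described further on, with a median of 703 and a maximum of 9852 CPM. The 888 CPM of muscle-rich spots thus lay above the median segment. The 10 radial glia markers summed to 841 against 930 CPM with 1 called low, and the 7 erythroid markers to 7832 against 6629 with 0 called. The part of these tissues and of depth in the mitosis ratio was not tested.

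The muscle-rich spots were not spread over the barcodes. Among the 46 sequences of the second barcode segment with at least 10 kept spots, 6 had 25% or more muscle-rich spots, and these 6 muscle segments, a group formed after the data were seen, held 149 of the 199 muscle-rich spots, or 74.9%. The mitosis rate lay between 448 and 569 CPM in these 6 and between 238 and 554 CPM, with a median of 328, in the other 40. All but 1 of the other 40 were at 424 CPM or less, so the 6 muscle segments and TGCCGGCA took the first 7 ranks. The seventh, at 448 CPM (376 to 530), and the eighth, at 424 CPM (312 to 564), had overlapping intervals, so ranks near this border are not resolved. The S phase rate lay between 142 and 228 CPM in the 6 and between 79.7 and 223 CPM in the 40, ranges that overlap.

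**Figure D2:**
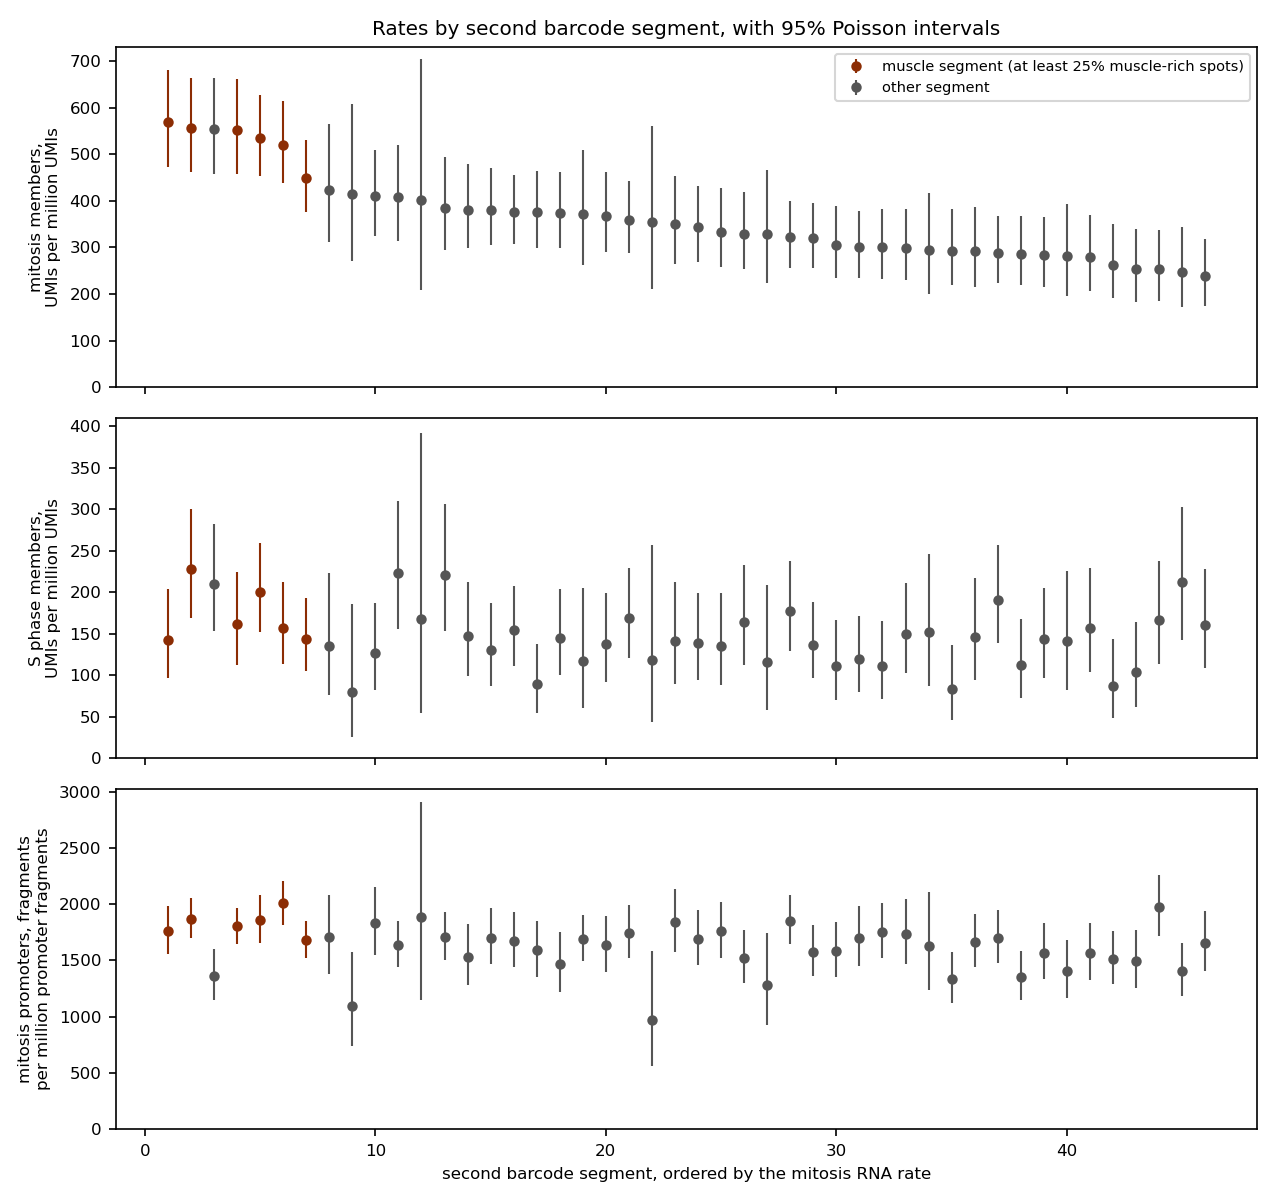
Rate of the mitosis members' RNA (top), the S phase members' RNA (middle) and the mitosis members' promoter fragments (bottom) in each of 46 second barcode segments, ordered by the mitosis RNA rate, with 95% Poisson intervals; brown points are the 6 muscle segments. The 7 highest mitosis rates lie at 448 CPM or above and the eighth at 424 CPM, with overlapping intervals at that place. The fall along the top panel is built in by this order, which the other panels share.

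Counting error alone would give a dispersion index, the Pearson chi-square over its degrees of freedom, near 1. Over the 46 segments the index was 4.57 for mitosis RNA, 1.59 for S phase RNA, 2.06 for mitosis promoters and 0.826 for S phase promoters. Over the 50 sequences of the first barcode segment it was 1.63 for mitosis RNA and 1.27 for S phase RNA. The index grows with the number of counts, and the coefficient of variation left after counting error was 22.7% for mitosis RNA and 14.5% for S phase RNA over the second segment, and 9.92% and 10.2% over the first. The spread of mitosis RNA thus followed the second segment more than the first. For single members an index of at least 1.5 was reached by 10 of 30 in RNA, a share close to the 32.6% of tested genes that did, and by 0 of 35 in promoters, where 16.3% did. Among the 30 members with 50 UMIs the highest indices were Top2a at 2.41, Mki67 at 1.95, Anln at 1.92, Rrm1 at 1.84 and Pcna at 1.74.

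In the muscle segments the mitosis rate was high in both kinds of spot. Inside the 6 segments, 149 muscle-rich spots had 383 mitosis UMIs, 517 CPM, and the 130 other spots had 407, 533 CPM, a ratio of 0.969 (0.840 to 1.12). Those 130 spots, set against the 1713 spots outside the 6 segments, had a ratio of 1.60 (1.44 to 1.78). Spots of these segments below the muscle-rich border therefore had a mitosis rate within counting error of that of the muscle-rich spots. Lying below that border does not make these spots free of muscle, and their own share of Acta1 and Ttn UMIs is not given here. Whether the mitosis rate in these segments varied apart from muscle was not tested. Outside the 6 segments, 50 muscle-rich spots had 47 mitosis UMIs and a ratio of 1.10 (0.809 to 1.47) over the rest. The S phase ratios of these 3 contrasts were 0.998, 1.19 (0.985 to 1.43) and 1.14, each with 1 inside its interval. Whether the second segment stands for position in the tissue or for a step of the assay cannot be told apart here, and the muscle segments also had more UMIs and fragments per spot, with medians of 4885 against 4015 and 37976 against 20509.

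**Figure D3:**
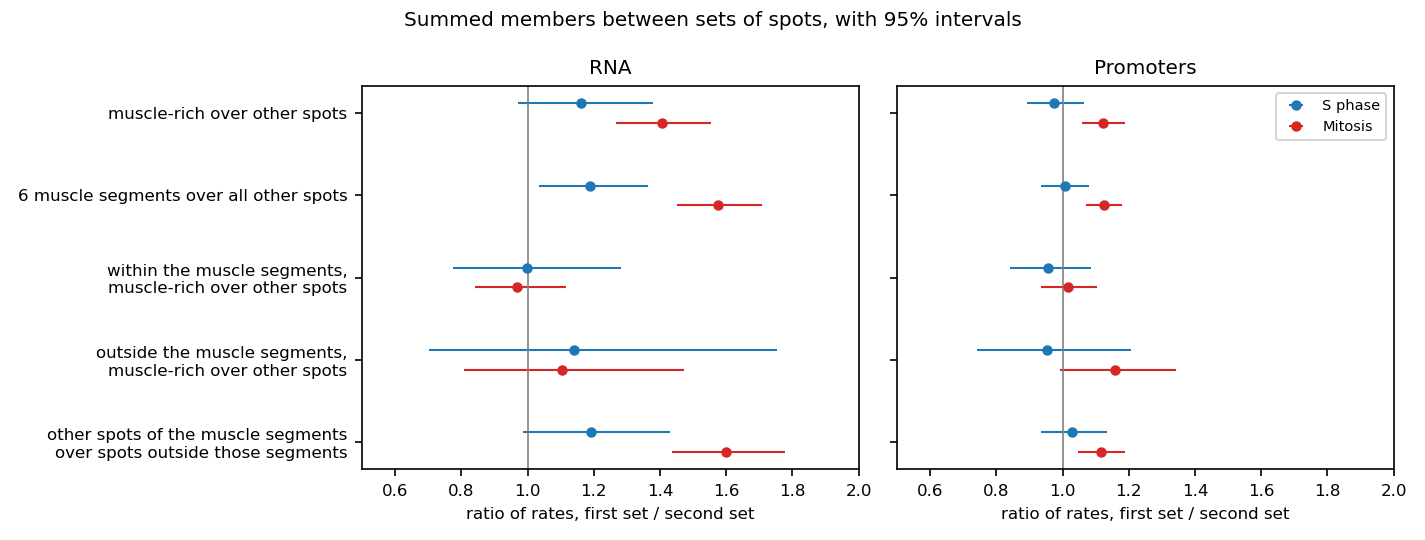
Ratios of the summed rates of S phase (blue) and mitosis members (red) between sets of spots, for RNA on the left and promoter fragments on the right, with 95% intervals. Mitosis RNA was at 1.40 in muscle-rich spots and 1.58 in the 6 muscle segments, but at 0.969 between muscle-rich and other spots inside those segments.

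Set against all other spots, the 279 spots of the muscle segments had a mitosis RNA ratio of 1.58 (1.45 to 1.71) and an S phase ratio of 1.19 (1.03 to 1.36). Markers of other tissues also differed there: the fibroblast list lay between 2215 and 5310 CPM in the 6 segments, with a median of 1018 over all 46, the epithelial list between 164 and 1480.1 (median 96.1), the cartilage list between 345 and 840 (median 232), and the neuron list between 2539 and 3147 (median 4326). Their part in the mitosis ratio was not tested. In this contrast 11 of 30 members were called high and 0 low, where 10.3% of tested genes were called high and 5.29% low. The median RNA ratio was 1.44 for mitosis members and 1.16 for S phase members, next to 0.988 for all tested genes. The highest were Cdk1, the master kinase, with 31 and 51 UMIs and a ratio of 2.91 (1.80 to 4.64), and Anln, with 32 and 56 UMIs and 2.74 (1.72 to 4.30). Top2a had 103 and 241 UMIs, a ratio of 2.05 (1.61 to 2.59). Rrm2, with 1.996 (1.12 to 3.43), and Rrm1, with 1.59 (1.13 to 2.19), were the called S phase members, both subunits of the same enzyme. Hmgb2 at 1.98, the kinetochore motor Cenpe at 1.93, Kif11 at 1.90, Cenpf at 1.70, Kif23 at 1.63 and Nusap1 at 1.57 were called as well. Mki67 had 1.47 (1.17 to 1.83), an interval above 1 but a ratio under the call. Ube2c, at 0.882 (0.603 to 1.26), and Aurka, at 0.912, were again without excess.

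The summed promoter ratios in the muscle segments were again smaller than the summed RNA ratios. The mitosis promoters had a ratio of 1.12 (1.07 to 1.18) and the S phase promoters 1.01 (0.935 to 1.08). Anln was the 1 member called high, at 1.69 (1.25 to 2.28), where 9.35% of genes were. Ccna2 at 1.47 (1.21 to 1.78), Mki67 at 1.41 (1.10 to 1.81) and Hmgb2 at 1.26 (1.09 to 1.44) had intervals above 1 without reaching the call, while Cdk1 had 1.23 (0.958 to 1.57), Top2a 1.04 and Kif11 0.990. Across the 46 segments mitosis RNA and mitosis promoters had a Spearman rho of 0.36, and 0.16 over the 40 outside the muscle group; the points share library, depth and tissue.

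The segment TGCCGGCA, singled out for its mitosis rate, had 46 spots and none that was muscle-rich. It had 116 mitosis UMIs, 554 CPM, and 44 S phase UMIs, 210.0 CPM, with ratios of 1.70 (1.39 to 2.04) and 1.48 (1.07 to 1.998) over the other spots outside the muscle segments. Its mitosis promoters ran the other way, with 149 fragments and a ratio of 0.834 (0.704 to 0.981). Its muscle fibre markers were at 3045 CPM, against 3397 in the other spots outside the muscle segments. Its erythroid markers were at 8769 against 6590 CPM, a ratio of 1.33 (1.27 to 1.39). Its choroid plexus and pituitary markers had ratios of 0.513 (0.434 to 0.602) and 0.467 (0.285 to 0.725) over the same spots. At 726 and 95.5 CPM these 2 lists were near their medians over the 46 segments, 703 and 93.1 CPM. The rates of the other spots, 1415 and 204 CPM, include segments of up to 9852 and 2577 CPM. The values of TGCCGGCA describe a segment picked for being high and support nothing by themselves.

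Spots rich in other tissues were compared in the same way, with the 199 spots highest for each of 14 marker lists. Mitosis RNA had a ratio of 1.43 in spots rich in the 8 muscle fibre markers, 1.42 in epithelial, 1.38 in fibroblast and 1.33 in cartilage spots. These sets overlap the muscle-rich spots, which made up 142, 58, 66 and 36 of their 199 spots. It was lowest, at 0.843 (0.737 to 0.961), in spots rich in markers of neurons, cells that have left the cycle, but outside the muscle segments these spots had 0.923 (0.805 to 1.06), an interval that holds 1. Spots rich in radial glia markers, the progenitors of the embryonic brain, had 1.07 (0.949 to 1.21), and 1.20 (1.05 to 1.36) outside the muscle segments. The other progenitor and precursor lists had intervals that held 1 in both settings. Their markers were sparse. The muscle progenitor, intermediate progenitor and oligodendrocyte precursor lists had 98, 39 and 114 UMIs in the 199 muscle-rich spots. In the 1793 other spots they had 411, 359 and 830. The spots chosen by these lists had median depths of 3716, 3882 and 3209 UMIs, against 4291, 4218 and 4240 in the rest. Their ratios therefore say little about mitosis in progenitors and precursors. Muscle progenitor spots had 1.02 (0.899 to 1.15), and 0.934 (0.796 to 1.09) outside the muscle segments. Intermediate progenitor spots had 0.981 (0.863 to 1.11) and 1.01 (0.875 to 1.16). Oligodendrocyte precursor spots had 1.05 (0.924 to 1.19) and 1.04 (0.897 to 1.21). Outside those segments the cartilage spots had 1.24 (1.04 to 1.45), the endothelial spots had 1.18 (1.02 to 1.35), the pituitary spots 1.17 (1.01 to 1.34) and the erythroid spots 1.15 (1.01 to 1.31), each over 127 to 185 spots. The epithelial spots had 1.20 (0.982 to 1.46), the fibroblast spots 1.15 (0.915 to 1.42) and the muscle fibre spots 0.984 (0.471 to 1.81), intervals that hold 1 and rest on fewer spots, 91, 84 and 13. The S phase members had intervals that held 1 in each of the 14 lists over all spots, and outside the muscle segments they had 1.29 (1.05 to 1.57) in spots rich in microglia and macrophage markers and 1.28 (1.05 to 1.54) in erythroid spots.

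**Figure D4:**
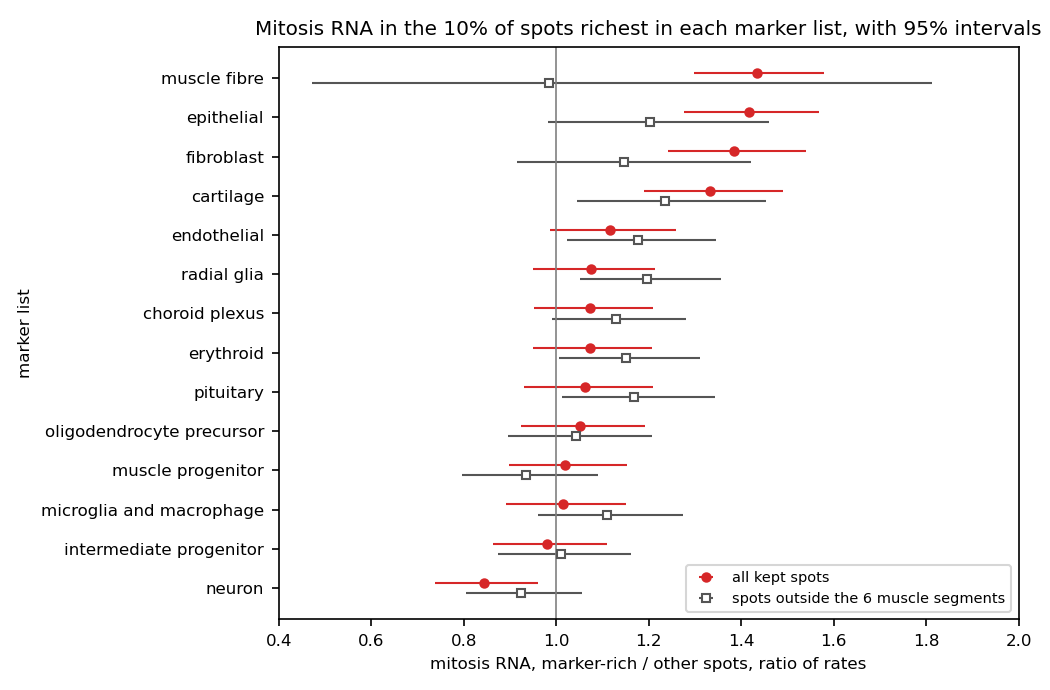
Ratio of the mitosis members' RNA rate between the 199 spots richest in each marker list and all other spots, with 95% intervals, over all kept spots (red circles) and outside the 6 muscle segments (open squares). Values run from 0.843 for neuron-rich to 1.43 for muscle-fibre-rich spots over all kept spots.

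Over the 46 segments, mitosis RNA had a Spearman rho of -0.57 with the neuron list, 0.57 with the fibroblast list, 0.50 with the epithelial list, 0.49 with the erythroid list, 0.47 with the microglia and macrophage list and -0.35 with the radial glia list. Over the 40 segments outside the muscle group these were -0.38, 0.41, 0.27, 0.54, 0.56 and -0.19. With the muscle fibre list rho was 0.41 over the 46 segments and 0.14 over the 40, with Acta1 and Ttn 0.40 and 0.12, with cartilage 0.41 and 0.18, and with choroid plexus 0.37 and 0.30. The sign for radial glia markers was thus opposite to that of the ratio in spots rich in them. That ratio was 1.20 (1.05 to 1.36) outside the muscle segments, but 1.07 (0.949 to 1.21), with 1 inside its interval, over all spots. With the S phase members of the same segments rho was 0.20, and 0.04 over the 40. They are 11 of 35 such pairs, shown as descriptions, and the points share a library and differ in depth. The genes most like the members in RNA over these segments, among 7923 genes with at least 200 UMIs, were Hist1h2ap (rho 0.64), a replication-dependent histone, then Rrbp1 (0.63), Wasf2 (0.62), Safb (0.59), Wipi1 (0.58), Cd82 (0.57), Prrx1 (0.56), Ifitm3 (0.56), Smim22 (0.56) and Utrn (0.56). The 95th percentile of rho over those genes was 0.33.

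Other cell cycle genes outside the set were counted in the same muscle-rich spots, where 6.69% of all tested genes were called high and 3.66% low. Of 24 genes of origins and replication 15 had 50 UMIs and 0 were called, with a summed ratio of 1.15 (1.03 to 1.29). Of 41 further mitosis genes 29 had 50 UMIs and 5 were called high: Kif4 at 2.58 (1.57 to 4.10), a chromosome motor, Ndc80 at 2.26, which links kinetochores to microtubules, Cks2 at 2.21, a partner of Cdk1, Kif15 at 1.84, a spindle motor, and Ckap2 at 1.82. Racgap1, a partner of Kif23 in the central spindle, was called low at 0.463 (0.196 to 0.934), and the list summed to 1.23 (1.11 to 1.35). Of 13 cyclins, kinases and E2F genes of G1 and S phase, 11 had 50 UMIs and the D-type cyclins Ccnd1 and Ccnd3 were called high, at 1.68 (1.35 to 2.06) and 1.88 (1.52 to 2.29), with a summed ratio of 1.18 (1.09 to 1.27). Of 12 inhibitors and exit genes 11 had 50 UMIs, with Cdkn1c, which halts the cycle, called high at 1.89 (1.69 to 2.10) and Fzr1, an activator of the anaphase-promoting complex, called low at 0.639 (0.408 to 0.959). The summed ratio of these 12 was 1.40 (1.30 to 1.52), of which Cdkn1c gave 414 of 752 UMIs in muscle-rich and 1978 of 4834 in other spots, and the median ratio of the 11 was 0.917.

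The promoters of these further lists were not in every case closer to 1 than their RNA. The 13 G1 and S phase genes had a summed promoter ratio of 1.24 (1.14 to 1.34), with 4 of 13 promoters called high where 6.52% of all tested were: those of the cyclins Ccnd2, at 1.92 (1.41 to 2.58), and Ccne1, at 1.61, of the kinase Cdk2, at 1.66, and of the repressor E2f8, at 1.61. Cdk2 and E2f8 had under 50 UMIs and could not be called in RNA, Ccnd2 had an RNA ratio of 1.10 (0.983 to 1.23) and Ccne1 had 0.933 (0.329 to 2.16). The inhibitors and exit genes had 1.19 (1.11 to 1.28), with the promoters of Cdkn2c, at 1.74, and the retinoblastoma gene Rb1, at 1.68, called high. The further mitosis genes had 1.02 (0.978 to 1.07), with Dlgap5 called high at 1.55 and Aspm low at 0.480, and the replication genes 1.06 (1.002 to 1.12) with 0 called.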

How the data were processed

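Per the file headers, the authors ran cellranger-arc (version 2.0.1, mm10 reference) on both libraries; Seurat 4.0 is named in the submitters' processing notes. The deposited matrix holds raw counts, as UMI counts per gene and cut-site counts per peak, and the deposited fragment file lists the position and barcode of every fragment with its count of supporting read pairs. Nothing was normalised by the authors in these files. How the 1993 matrix barcodes were chosen is not given in the sources used here. Members and gene lists were chosen with earlier results of these data known.

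Kept spots had 500 to 6000 genes and no more than 20% of UMIs from mitochondrial genes. Each start site was the outermost 5′ end among principal transcripts of the gene in GENCODE M21, and fragments overlapping 1 kb on each side were counted. Ratios of rates have conditional binomial intervals at 95% and single rates exact Poisson intervals. Named genes were all members, Acta1 and Ttn, and the 10 genes most like the members in RNA over the second segment. From each further list up to 4 called genes were named. The fifth high and the low mitosis gene, and the genes called in promoters, were named after their values were seen. Alternatives were other spot filters, shares of spots, promoter windows, denominators, minimums and folds. Python 3.11.15, numpy 2.4.6, pandas 2.3.3 and scipy 1.17.1 were used, and the steps were tested on simulated data.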

Additional observations from a re-analysis of the deposited data

Results flagged for a closer look

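The 507 barcodes of the fragment file that are outside the count matrix entered the shares of short fragments at promoters. No comparison between spots above used them. They held 980 fragments at the promoters of the members, 305 of S phase and 675 of mitosis genes, where a count of 0 would allow up to 3. That is 2241 per 1000000 promoter fragments against 2442 in the matrix barcodes, a ratio of 0.918 (0.859 to 0.980).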

How the results depend on the processing

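Each of 6 results on muscle-rich spots, 2 on barcode segments and 14 on marker lists was recomputed under alternatives, and 91 of 108 values kept their side of the threshold, moved by less than counting error or, for counts, stayed within 1.5 times. For the alternatives below, the share of all genes called was not counted. The counts of called members therefore have no background beside them and only show how far the call depends on the setting. The count of members called in RNA, 5, was 8 with the highest 20% of spots and 1 with a 2-fold threshold (Anln). Among smaller changes, Hmgb2 was lost with Acta1 alone (4 called), Anln with a minimum of 100 UMIs, which its 88 do not reach (4), and Kif23 was gained with the highest 5% of spots (6). The count called in promoters, 1 (Anln, high), was 3 with the highest 5% of spots (Anln high, Mcm6 and Knl1 low), 0 with the highest 20%, 2 with a 500 bp window (Anln high, Ccnb2 low) and 2 per 1000000 of all fragments (Anln and Aurkb, high). Within the muscle segments, added after seeing the data, mitosis RNA turned to 0.969, mitosis promoters moved to 1.02, and 0 members were called in RNA and 0 in promoters; outside them mitosis RNA was 1.10 and again 0 and 0 were called; the cause was not tested, and both subsets hold fewer spots. The dispersion index of all members over the second segment, 4.67 in RNA and 2.01 in promoters, was 1.77 and 1.15 over the first, and 2.31 in RNA without the muscle segments. For pituitary-rich spots the ratio of all members was 1.09, and 1.23 with the highest 5%. For intermediate progenitor markers the highest 20% could not be formed, since most spots had 0 such UMIs. No paired analysis was possible because there was 1 library per assay, and no replicate could be left out. With 13 to 448 UMIs per member, single ratios have wide intervals.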
